A study of Mus musculus with 15 samples.

Results

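The genes described here are the machinery that copies DNA in S phase: 45 genes, from origin recognition and the replicative helicase to the polymerases, nucleotide supply and chromatin copying. They were listed by symbol, with earlier results of these data known, and no measured value enters the rule. Of the 45, 44 were measured among 22180 genes with a probe set of their own, through 49 probe sets. The other one, Rfc4, a subunit of the clamp loader, shares its probe set with another gene and has no value here. Carotid arteries of female C57Bl/6J mice aged 21 to 22 weeks were measured on arrays, 5 days after the left common carotid artery was tied off. Ligated and non-ligated arteries were each taken from wildtype and Has3 deficient mice, with 4 arrays in every group but that of Has3 deficient ligated arteries, which has 3, numbered 3, 5 and 6 in the labels. Has3 is one of the enzymes that make hyaluronan, a long sugar chain of the extracellular matrix. In the labels used here the deficiency is given without its allele or the cells it affects. Whether each array stands for its own animal is not said either, and every p-value then rests on the spread among these arrays alone.

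Before a cell can divide, the origin recognition complex, CDC6 and CDT1 load the ring of MCM2 to MCM7 onto DNA (licensing). The kinase CDC7 with its activator DBF4, and the factors CDC45, GINS and MCM10, then turn that ring into a running helicase, and polymerase alpha with primase lays down primers that polymerases delta and epsilon extend, held by the sliding clamp PCNA. Most of these genes are known targets of E2F transcription factors, which are held back in resting cells. Vascular smooth muscle cells of a healthy artery rarely divide, and injury is known to bring both dividing wall cells and blood-borne leukocytes into it.

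A value below is the log2 signal of a gene minus the middle value of the same probe set among the 15 arrays, so 0 is that middle value. The level of a gene was removed by this centring, and levels are not compared between genes. The non-ligated arteries are samples of their own, taken at the same day as the ligated ones, and where the values of 2 groups follow each other the non-ligated arrays come first. A difference is given in log2 units with its standard error (±) unless SD is written. To pass, a gene needed an adjusted p below 0.05 in limma (Benjamini-Hochberg, over all 22180 genes).

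The array medians over all probe sets lay between -0.0014 and 0.017. The probe set of Has3 itself averaged 0.03 ± 0.13 in wildtype and 0.12 ± 0.24 in Has3 deficient non-ligated arteries (SD, n = 4 each), and 0.16 ± 0.29 (SD, n = 4) and -0.05 ± 0.17 (SD, n = 3) in ligated ones. It therefore does not check the genotype labels. The mean of 10 neuronal and chromaffin markers was raised in 4 non-ligated arrays, Has3 deficient 3 (4.21), wildtype 2 (2.34), Has3 deficient 4 (1.71) and Has3 deficient 1 (1.10), against -0.48 to -0.28 in the other 4. Without the first 2 of these, 30 members were higher and 1 lower in wildtype ligation, where Pola1 was lost. In Has3 deficient ligation 27 were higher, with Cdc45 and Prim2 lost and Fen1 and Timeless gained.

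Ligation raised most of the replication genes in both genotypes. In wildtype arteries 30 of the 44 members were higher after ligation, 2 were lower and 12 did not pass; of all genes 13.2% were higher and 14.6% lower. In Has3 deficient arteries 27 were higher, none was lower and 17 did not pass, against 10.2% higher and 8.08% lower among all genes. Over the 44 members the median difference was 0.39 for wildtype and 0.41 for Has3 deficient arteries, while over all genes it was 0.0055 and -0.030. Single members ranged from -0.40 to 1.20 in wildtype arteries, and 1 of them, Dbf4, rose by more than 1 log2 unit.

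These are whole arteries, so more cells of a dividing type and more RNA per cell cannot be told apart. Markers of other cells moved with ligation. Of 10 macrophage markers 9 were higher in each genotype, and their mean lay between -0.67 and -0.17 in non-ligated and between 1.90 and 2.16 in ligated wildtype arrays. In Has3 deficient arrays it lay between -1.19 and -0.14, and between 1.87 and 2.04. Of 10 neutrophil markers 8 were higher in each genotype, with ligated means of 1.40 to 2.27 and 1.69 to 2.15. Smooth muscle markers were lower, 9 of 10 in wildtype and 10 of 10 in Has3 deficient arteries. Of 9 lymphocyte markers 4 and 3 were higher. Endothelial markers went both ways, with 3 of 10 higher and 4 lower in wildtype and 3 higher and 3 lower in Has3 deficient arteries, as did 9 adventitial fibroblast markers, with 1 higher and 5 lower, then 3 and 3. Of 10 fat markers 3 were lower in wildtype arteries (median -1.44) and 0 passed in Has3 deficient ones (median -0.34). The 10 neuronal and chromaffin markers did not pass in either genotype, with medians of -0.43 and -1.56 and with 10 of 10 differences negative in Has3 deficient arteries. Of 10 skeletal muscle markers 1 was lower in wildtype, and 1 was higher and 1 lower in Has3 deficient arteries. The part of these cells in the rise of the replication genes was not tested.

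**Figure D1:**
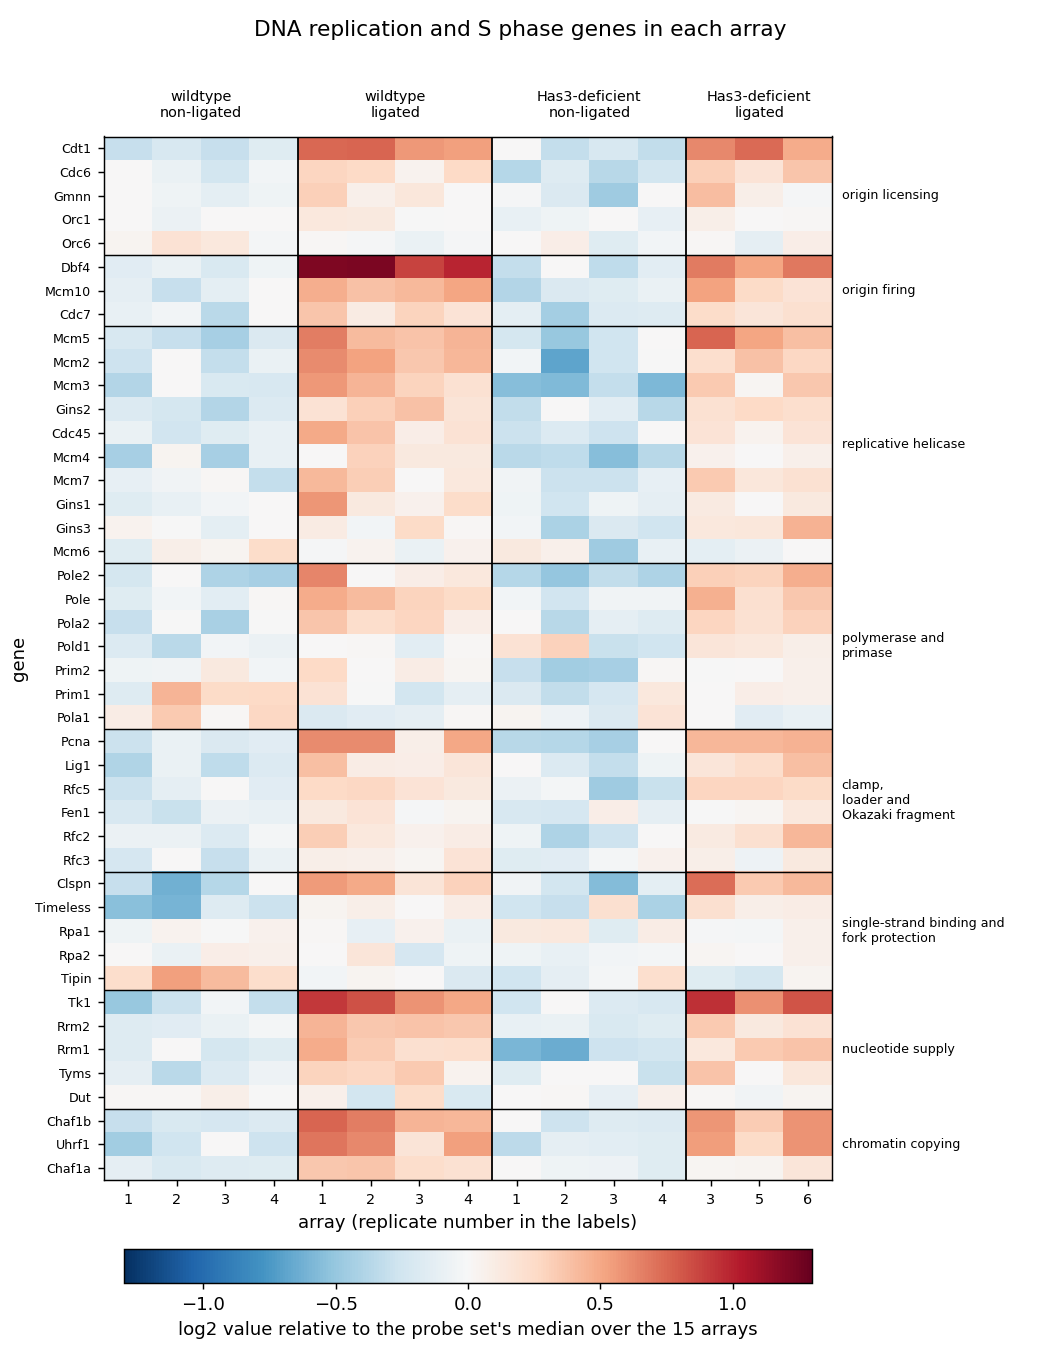
Colour gives the centred log2 value of each of the 44 measured members (rows, grouped by role) in each of the 15 arrays (columns, by group and replicate number). The ligated arrays of both genotypes are red for most members, Dbf4 and Tk1 most of all, while Tipin and Pola1 are on average highest in the wildtype non-ligated arrays.

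Across arrays, the median over the members was -0.16, -0.08, -0.15 and -0.06 in wildtype non-ligated arteries 1 to 4, and 0.33, 0.24, 0.14 and 0.15 in wildtype ligated arteries 1 to 4. It was -0.09, -0.18, -0.19 and -0.11 in Has3 deficient non-ligated arteries 1 to 4, and 0.20, 0.14 and 0.19 in ligated arteries 3, 5 and 6. Every ligated array lay above every non-ligated array. Within the wildtype ligated group arrays 1 and 2 were the highest in this median, and they also had the highest means of the mitosis list (1.40 and 1.30, against 1.17 or less) and of the macrophage markers (2.16 and 2.11, against 2.08 and 1.90). The orders did not match throughout in the other groups. Wildtype non-ligated array 1 had the lowest median of its group with the highest mitosis (-0.20) and macrophage means (-0.17). Has3 deficient non-ligated array 1 had the highest median with the lowest macrophage mean (-1.19). Has3 deficient ligated array 3 was highest in median and macrophage mean (2.04). Array 6 was above array 5 in the median, with a lower macrophage mean (1.87 against 2.01).

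Among the 5 licensing genes, 2 rose in each genotype and 3 did not pass. Cdt1, which helps load the MCM ring, read -0.30, -0.20, -0.30 and -0.15 in wildtype non-ligated arrays and 0.74, 0.76, 0.56 and 0.54 in ligated ones. Among Has3 deficient arteries it read 0, -0.30, -0.21 and -0.32 without ligation and 0.62, 0.74 and 0.48 with it. All 7 ligated arrays were above all 8 non-ligated arrays. The difference was 0.89 ± 0.08 (1.85-fold, adjusted p = 2.35e-06) in wildtype and 0.82 ± 0.09 (1.77-fold, adjusted p = 1.5e-05) in Has3 deficient arteries. Cdc6, the loading ATPase, also rose, by 0.30 ± 0.07 and 0.57 ± 0.08.

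Orc1 and Orc6, the origin recognition subunits among the members, moved less than Cdt1 and Cdc6. Orc6 read 0.03, 0.19, 0.14 and -0.03 in wildtype non-ligated and 0.01, -0.01, -0.08 and -0.02 in wildtype ligated arrays. The Has3 deficient arrays read 0, 0.08, -0.15 and -0.04, then 0.02, -0.12 and 0.08 after ligation. The groups overlapped, and the wildtype difference was -0.11 ± 0.07 with a 95% confidence interval of -0.25 to 0.03 (adjusted p = 0.27). Orc1 differed by 0.08 ± 0.05 and 0.09 ± 0.05, and Gmnn, whose product geminin blocks CDT1, by 0.19 ± 0.11 and 0.32 ± 0.12, none of which passed. Orc2 to Orc5 were listed with the other replication genes. In wildtype arteries Orc3, Orc4 and Orc5 passed as lower, at -0.35 ± 0.08, -0.32 ± 0.10 and -0.37 ± 0.08. Orc2 differed by -0.23 ± 0.08 there (adjusted p = 0.0595). In Has3 deficient arteries Orc2 to Orc5 differed by -0.17 to -0.03 and did not pass.

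All 3 origin firing genes rose in both genotypes. Dbf4, the activating subunit of the CDC7 kinase, had the largest rise of all members in wildtype arteries. It read -0.14, -0.08, -0.20 and -0.05 in wildtype non-ligated and 1.22, 1.22, 0.88 and 0.99 in wildtype ligated arrays. In Has3 deficient arrays it read -0.31, 0, -0.33 and -0.14 without ligation, and 0.68, 0.51 and 0.69 with it. The ligated values of the genotypes did not overlap: the highest Has3 deficient array, at 0.69, was below the lowest wildtype one, at 0.88. The ligation difference was 1.20 ± 0.09 (2.30-fold, adjusted p = 2.91e-07) in wildtype and 0.82 ± 0.10 (1.76-fold, adjusted p = 3.45e-05) in Has3 deficient arteries.

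Cdc7, the kinase itself, read -0.10, -0.04, -0.35 and 0 in wildtype non-ligated and 0.36, 0.11, 0.29 and 0.17 in ligated arrays. The Has3 deficient arrays read -0.13, -0.44, -0.17 and -0.17, then 0.24, 0.15 and 0.21. The groups did not overlap in either genotype. It rose by 0.36 ± 0.09 (adjusted p = 0.00705) and 0.43 ± 0.10 (adjusted p = 0.00566), a smaller step than that of its activator. Mcm10, a scaffold of the starting fork, rose by 0.58 ± 0.09 and 0.52 ± 0.09.

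The replicative helicase is the ring of 6 MCM proteins with CDC45 and the GINS complex. Of its 10 genes among the members, 8 rose in each genotype. Gins4, also of the GINS complex, was listed with the other replication genes and did not pass. It differed by -0.19 ± 0.07 in wildtype (adjusted p = 0.0638), with ligated arrays wholly below non-ligated ones, and by 0.07 ± 0.08 in Has3 deficient arteries. Mcm5 read -0.20, -0.30, -0.43 and -0.19 in wildtype non-ligated and 0.67, 0.41, 0.37 and 0.44 in ligated arrays. In Has3 deficient arteries it read -0.23, -0.49, -0.26 and 0, then 0.75, 0.51 and 0.39. Every ligated array was above every non-ligated one. Mcm5 rose by 0.75 ± 0.11 (1.69-fold, adjusted p = 9.82e-05) and 0.80 ± 0.12 (1.74-fold, adjusted p = 0.000208).

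Mcm6, a subunit of the same ring, did not pass in either genotype. It read -0.15, 0.08, 0.03 and 0.24 in wildtype non-ligated, -0.01, 0.05, -0.09 and 0.06 in wildtype ligated, 0.12, 0.07, -0.47 and -0.10 in Has3 deficient non-ligated, and -0.12, -0.08 and 0 in Has3 deficient ligated arrays. The groups overlapped throughout. Its difference was -0.05 ± 0.11 in wildtype (95% confidence interval -0.29 to 0.19) and 0.03 ± 0.12 in Has3 deficient arteries (-0.23 to 0.29). The other 4 ring genes rose in both genotypes, Mcm2 by 0.65 ± 0.13 and 0.54 ± 0.14, Mcm3 by 0.57 ± 0.11 and 0.74 ± 0.11, Mcm4 by 0.37 ± 0.10 and 0.44 ± 0.11, and Mcm7 by 0.33 ± 0.10 and 0.40 ± 0.11. The difference between Mcm6 and the other subunits was not itself tested. Mcm6 is read by a single probe set.

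Cdc45 rose by 0.43 ± 0.09 and 0.32 ± 0.10, and Gins2 by 0.50 ± 0.08 and 0.43 ± 0.09. Gins1 rose in wildtype arteries by 0.32 ± 0.09 (adjusted p = 0.0194), and its difference was 0.21 ± 0.10 in Has3 deficient ones (adjusted p = 0.203). Gins3 was called in the other genotype: it rose by 0.47 ± 0.10 in Has3 deficient arteries (adjusted p = 0.00412), and its wildtype difference was 0.11 ± 0.09 (adjusted p = 0.472).

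**Figure D2:**
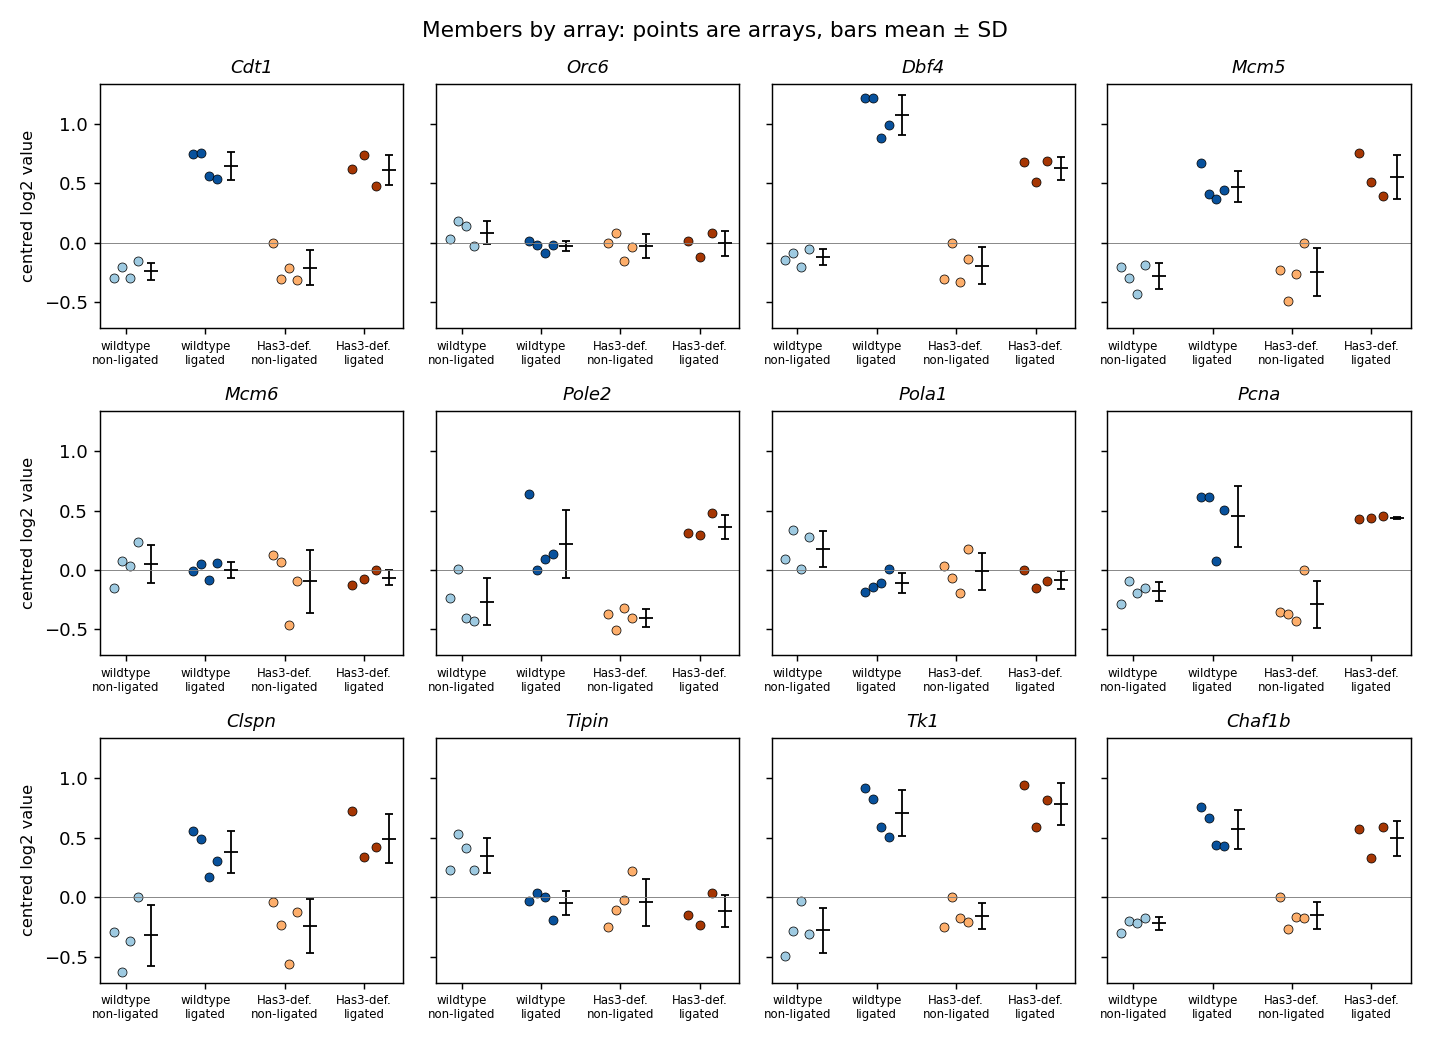
Each panel plots the centred log2 value of 1 member in every array, with points for arrays and bars for the group mean ± SD (n = 4, or 3 for Has3 deficient ligated). Cdt1, Dbf4, Mcm5, Clspn, Tk1 and Chaf1b are higher in the ligated groups of both genotypes, Orc6 and Mcm6 overlap between groups, and Tipin and Pola1 are highest in wildtype non-ligated arteries.

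E2F proteins bind short GC-rich words near the starts of many replication genes. The 250 bases before the annotated start of 4 members are shown, written 5′ to 3′ on the strand of the gene, because these members differ in response: Mcm5 rose, Mcm6 of the same ring did not pass, Pola1 fell in wildtype arteries, and Dbf4 rose most. Sequences are from RefSeq, build GRCm38.p6, at chr8:75109259-75109508 on the plus strand for Mcm5, and on the minus strand at chr1:128359706-128359955 for Mcm6, chrX:93632156-93632405 for Pola1 and chr5:8422717-8422966 for Dbf4. Capitals mark an E2F word on either strand (TTTGGCGC, TTTCCCGC, TTTGCCGC or TTTCGCGC, or its reverse complement).
Mcm5: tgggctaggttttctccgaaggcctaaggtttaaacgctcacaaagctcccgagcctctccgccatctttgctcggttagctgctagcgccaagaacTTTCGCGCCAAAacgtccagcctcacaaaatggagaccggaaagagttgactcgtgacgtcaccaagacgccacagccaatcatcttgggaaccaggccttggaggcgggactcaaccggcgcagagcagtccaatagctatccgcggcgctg
Mcm6: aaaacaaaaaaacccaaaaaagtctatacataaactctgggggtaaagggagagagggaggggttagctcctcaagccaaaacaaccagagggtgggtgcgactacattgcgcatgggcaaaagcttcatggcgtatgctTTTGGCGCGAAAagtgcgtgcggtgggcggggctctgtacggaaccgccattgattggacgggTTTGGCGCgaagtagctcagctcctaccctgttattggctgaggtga
Pola1: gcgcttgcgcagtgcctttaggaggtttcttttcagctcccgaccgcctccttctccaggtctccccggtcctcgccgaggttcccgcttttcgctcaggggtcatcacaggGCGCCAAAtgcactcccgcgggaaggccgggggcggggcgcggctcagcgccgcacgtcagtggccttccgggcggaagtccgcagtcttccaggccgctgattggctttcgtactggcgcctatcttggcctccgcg
Dbf4: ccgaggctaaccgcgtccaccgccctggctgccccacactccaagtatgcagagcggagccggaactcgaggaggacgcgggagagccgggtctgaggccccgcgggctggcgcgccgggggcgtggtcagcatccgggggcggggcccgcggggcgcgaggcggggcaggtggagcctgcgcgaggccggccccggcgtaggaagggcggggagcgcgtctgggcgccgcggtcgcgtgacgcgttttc

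In Mcm5 a pair of words overlap on opposite strands, at -153 and -149 from the annotated start. Mcm6 holds the same kind of overlapping pair at -110 and -106, and another word at -47. Pola1 holds 1 word, at -138, and Dbf4 none in this window. A word match is a description of the letters, not a bound site.

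A window of 250 bases before to 50 bases after the start was given for 36 of the 44 measured members, some with more than 1 start, 42 windows in all. An E2F word was in 15 of these 42 windows (35.7%), and in 744 of 32851 windows of all promoters (2.26%). The words were found in both kinds of member: 10 of 32 windows of members that rose in wildtype arteries held one, and 5 of 10 windows of members that did not. CCAAT was in 54.8% of the member windows and 37.4% of all windows. The words of the cell cycle homology region, TTTGAA or TTCGAA, known from genes of mitosis, were in 21.4% of member windows, 19.2% of all windows and 83.3% of the windows of 17 mitosis genes. All words were searched on both strands, and none was required to be free of overlap with another.

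**Figure D3:**
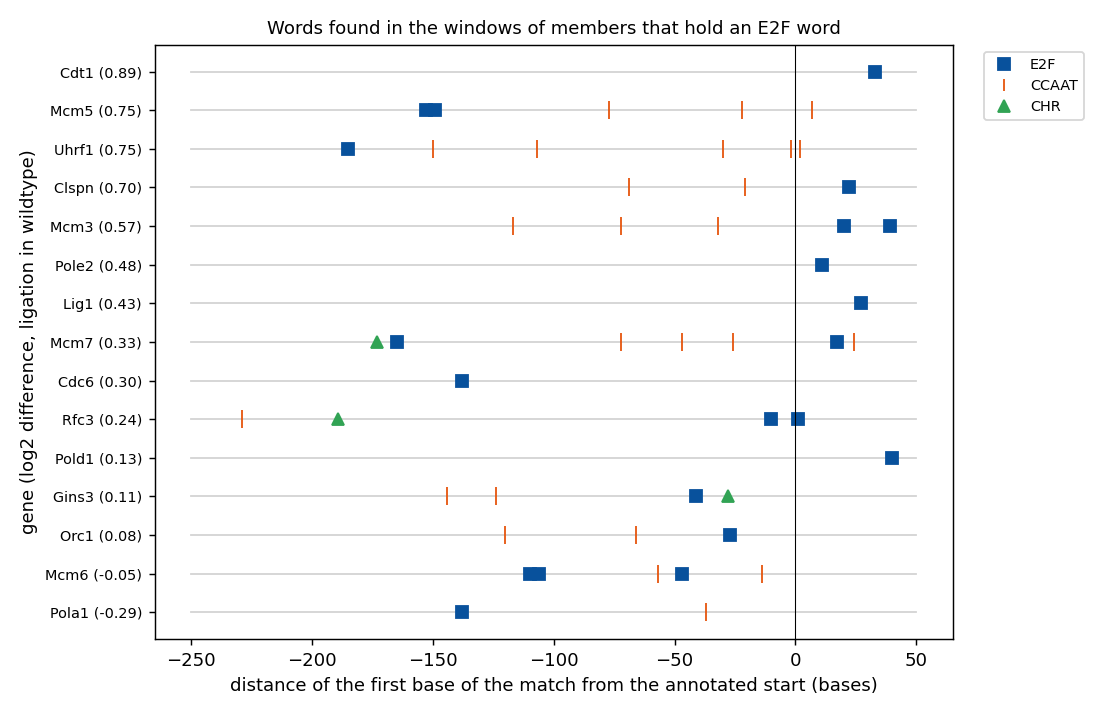
Marks show where a word begins, in bases from the annotated start, for the 15 members whose window holds an E2F word (squares for E2F, bars for CCAAT, triangles for the cell cycle homology region). Members are ordered by their difference in wildtype ligation, given in brackets, and E2F words appear from Cdt1 (0.89) down to Mcm6 (-0.05) and Pola1 (-0.29).

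The 7 polymerase and primase genes split by subunit. In wildtype arteries 3 rose, 1 fell and 3 did not pass, and in Has3 deficient arteries 4 rose and 3 did not pass. Pole2, the second subunit of polymerase epsilon, read -0.23, 0.0054, -0.40 and -0.43 in wildtype non-ligated and 0.64, 0, 0.09 and 0.14 in ligated arrays. Has3 deficient arrays read -0.37, -0.50, -0.32 and -0.40, then 0.31, 0.29 and 0.48. The wildtype groups overlapped at array 2 of each, and the Has3 deficient groups lay far apart. Pole2 rose by 0.48 ± 0.13 (adjusted p = 0.0103) and 0.76 ± 0.14 (adjusted p = 0.00124). Pole, the catalytic subunit, rose by 0.43 ± 0.07 and 0.43 ± 0.08.

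Within polymerase alpha, which starts each new strand with the primase, the catalytic and the accessory gene moved in opposite directions in wildtype arteries. Pola2, the accessory subunit, rose by 0.42 ± 0.10 (adjusted p = 0.0061). Pola1, the catalytic subunit, read 0.09, 0.34, 0.01 and 0.27 in non-ligated and -0.19, -0.15, -0.11 and 0.01 in ligated wildtype arrays. It fell by 0.29 ± 0.09 (adjusted p = 0.0241), and its groups touched without overlapping. This call was lost when any 1 of 5 wildtype arrays was left out (non-ligated 2 or 4, ligated 1, 2 or 3), with adjusted p = 0.0501 to 0.0811. Among Has3 deficient arteries Pola1 read 0.03, -0.07, -0.19 and 0.18, then 0, -0.15 and -0.10, an overlapping pair of groups with a difference of -0.07 ± 0.09 (adjusted p = 0.697).

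The primase genes did not pass in wildtype arteries. Prim1, the catalytic subunit, differed by -0.24 ± 0.13 in wildtype and 0.20 ± 0.14 in Has3 deficient arteries. Prim2, the large subunit, read -0.06, -0.05, 0.13 and -0.03, then 0.26, 0.004, 0.09 and 0.03 after ligation in wildtype arrays. Among Has3 deficient arteries the values were -0.30, -0.45, -0.43 and 0.02 without and -0.01, 0 and 0.07 with ligation. Of these, 3 non-ligated arrays were low and number 4 lay among the ligated ones. Its rise of 0.31 ± 0.10 (adjusted p = 0.0462) was lost in 16 of 24 alternative analyses, single arrays left out among them. Pold1, the catalytic subunit of polymerase delta, differed by 0.13 ± 0.12 and 0.14 ± 0.13, neither of which passed.

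Of the 6 genes of the clamp, its loader and Okazaki fragment joining, 5 rose in wildtype and 4 in Has3 deficient arteries. Pcna, the sliding clamp, read -0.28, -0.09, -0.19 and -0.15 in wildtype non-ligated and 0.61, 0.62, 0.07 and 0.51 in ligated arrays. For Has3 deficient arteries the values were -0.36, -0.37, -0.43 and 0, then 0.43, 0.44 and 0.45. Ligated array 3 of the wildtype stood low, still above every non-ligated array. Pcna rose by 0.63 ± 0.12 (1.55-fold, adjusted p = 0.000816) and 0.73 ± 0.13 (1.66-fold, adjusted p = 0.000856). Lig1, the ligase that seals the lagging strand, rose by 0.43 ± 0.09 and 0.40 ± 0.10.

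Rfc3, a subunit of the clamp loader, had the smallest rise of this role. It read -0.21, 0, -0.30 and -0.08, then 0.08, 0.07, 0.03 and 0.18 in wildtype arrays, and -0.15, -0.15, -0.02 and 0.05, then 0.08, -0.07 and 0.12 in Has3 deficient ones. The wildtype groups did not overlap and the Has3 deficient groups did. The rise was 0.24 ± 0.07 in wildtype (adjusted p = 0.0259), and the Has3 deficient difference was 0.11 ± 0.08 (adjusted p = 0.392). The wildtype call was lost when non-ligated array 1, non-ligated array 3 or ligated array 4 was left out. Of the other loader genes, Rfc5 rose in both genotypes, by 0.34 ± 0.09 and 0.49 ± 0.09, while Rfc2 differed by 0.24 ± 0.09 in wildtype (adjusted p = 0.0787) and rose by 0.43 ± 0.10 in Has3 deficient arteries. Fen1, the flap nuclease, rose by 0.25 ± 0.08 in wildtype, and its difference was 0.16 ± 0.08 in Has3 deficient arteries (adjusted p = 0.213).

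The genes that coat and guard the fork were mixed, with 2 higher, 1 lower and 2 not passed in wildtype arteries. Clspn, whose product claspin relays the stalled-fork signal, read -0.30, -0.63, -0.37 and 0, then 0.55, 0.49, 0.17 and 0.30 in wildtype arrays. In Has3 deficient arrays it read -0.04, -0.23, -0.56 and -0.13, then 0.72, 0.34 and 0.42. The groups did not overlap, and Clspn rose by 0.70 ± 0.14 (adjusted p = 0.00187) and 0.74 ± 0.15 (adjusted p = 0.00394).

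Tipin fell while the gene of its partner rose. TIPIN and TIMELESS form a complex that holds the helicase and polymerase together. Tipin read 0.23, 0.53, 0.41 and 0.23 in wildtype non-ligated and -0.03, 0.04, 0 and -0.19 in wildtype ligated arrays. In Has3 deficient arteries it read -0.25, -0.11, -0.03 and 0.22 without and -0.15, -0.23 and 0.03 with ligation. The 4 wildtype non-ligated arrays were above all 11 others. Tipin fell by 0.40 ± 0.10 in wildtype arteries (0.76-fold, adjusted p = 0.00922) and differed by -0.07 ± 0.11 in Has3 deficient ones (adjusted p = 0.73). Timeless rose by 0.45 ± 0.12 in wildtype (adjusted p = 0.013), with a Has3 deficient difference of 0.32 ± 0.13 (adjusted p = 0.124). Rpa1 and Rpa2, of the protein that coats single strands, differed by -0.04 ± 0.07 and -0.05 ± 0.07 in wildtype and by -0.04 ± 0.07 and 0.08 ± 0.07 in Has3 deficient arteries.

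Of 5 genes of nucleotide supply, 4 rose in wildtype and 3 in Has3 deficient arteries. Tk1, the thymidine kinase of dividing cells, read -0.49, -0.28, -0.03 and -0.31, then 0.92, 0.83, 0.59 and 0.50 in wildtype arrays. In Has3 deficient arrays it read -0.25, 0, -0.18 and -0.21, then 0.95, 0.59 and 0.81. Ligated and non-ligated arrays were well apart, by 0.99 ± 0.11 (1.98-fold, adjusted p = 1.61e-05) and 0.94 ± 0.12 (1.92-fold, adjusted p = 8.02e-05). Tyms, which makes thymidylate, rose by 0.41 ± 0.10 in wildtype, and its difference was 0.28 ± 0.11 in Has3 deficient arteries (adjusted p = 0.0811).

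Rrm1 and Rrm2 encode the large and the small subunit of ribonucleotide reductase, which makes deoxyribonucleotides. Rrm1 read -0.17, 0, -0.23 and -0.15, then 0.48, 0.33, 0.21 and 0.22 in wildtype arrays, and -0.60, -0.64, -0.27 and -0.24, then 0.14, 0.34 and 0.37 in Has3 deficient ones. The non-ligated arrays of the genotypes did not overlap, those of Has3 deficient arteries being lower. Rrm1 rose by 0.45 ± 0.10 (adjusted p = 0.00364) and 0.72 ± 0.11 (adjusted p = 0.000294). Rrm2 read -0.17, -0.14, -0.09 and -0.03, then 0.44, 0.35, 0.38 and 0.35 in wildtype arrays, and -0.09, -0.09, -0.19 and -0.16, then 0.34, 0.13 and 0.19 in Has3 deficient ones. Its ligated arrays were above all non-ligated ones, and it rose by 0.48 ± 0.06 (adjusted p = 1.36e-05) and 0.35 ± 0.06 (adjusted p = 0.000742).

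Dut clears dUTP, a nucleotide that must be kept out of DNA. It read 0.02, 0.02, 0.07 and -0.0023, then 0.07, -0.24, 0.24 and -0.20 in wildtype arrays, and 0.00088, 0.01, -0.11 and 0.07, then 0.02, -0.05 and 0.03 in Has3 deficient ones. All groups overlapped, with differences of -0.06 ± 0.09 and 0.01 ± 0.10.

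The probe sets of a gene did not always read alike, and the mean was used. Of the 5 members with 2 probe sets, 3 had 1 that passed and 1 that did not in wildtype ligation. For Rrm2 these differed by 0.90 ± 0.09 (adjusted p = 5.95e-06) and 0.07 ± 0.04 (adjusted p = 0.34), for Pole by 0.71 ± 0.11 and 0.16 ± 0.06, and for Fen1 by 0.42 ± 0.08 and 0.08 ± 0.12. The rise of these 3 genes is therefore larger on one probe set than on the mean. The Fen1 probe set that passed in wildtype also passed in Has3 deficient arteries (0.29 ± 0.08, adjusted p = 0.0265), where the mean did not. The other Fen1 probe set differed by 0.04 ± 0.13 there.

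All 3 genes that copy chromatin behind the fork rose in wildtype and 2 in Has3 deficient arteries. Chaf1b, a subunit of the chromatin assembly factor that places histones on new DNA, read -0.30, -0.20, -0.21 and -0.17, then 0.76, 0.66, 0.44 and 0.43 in wildtype arrays. In Has3 deficient arrays it read 0, -0.27, -0.17 and -0.18, then 0.58, 0.33 and 0.59. It rose by 0.79 ± 0.09 (1.73-fold, adjusted p = 9.75e-06) and 0.65 ± 0.09 (adjusted p = 2e-04), with no overlap. Uhrf1, which passes DNA methylation to the new strand, rose by 0.75 ± 0.12 and 0.65 ± 0.13.

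Chaf1a, the large subunit of the same factor, read -0.11, -0.20, -0.17 and -0.16, then 0.35, 0.36, 0.23 and 0.20 in wildtype arrays. In Has3 deficient arrays it read 0, -0.06, -0.07 and -0.16, then 0.03, 0.03 and 0.16. Its ligated arrays were above the non-ligated ones in each genotype, narrowly so in Has3 deficient arteries. It rose by 0.45 ± 0.06 in wildtype (adjusted p = 2.99e-05), and the Has3 deficient difference was 0.14 ± 0.06 (adjusted p = 0.121).

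**Figure D4:**
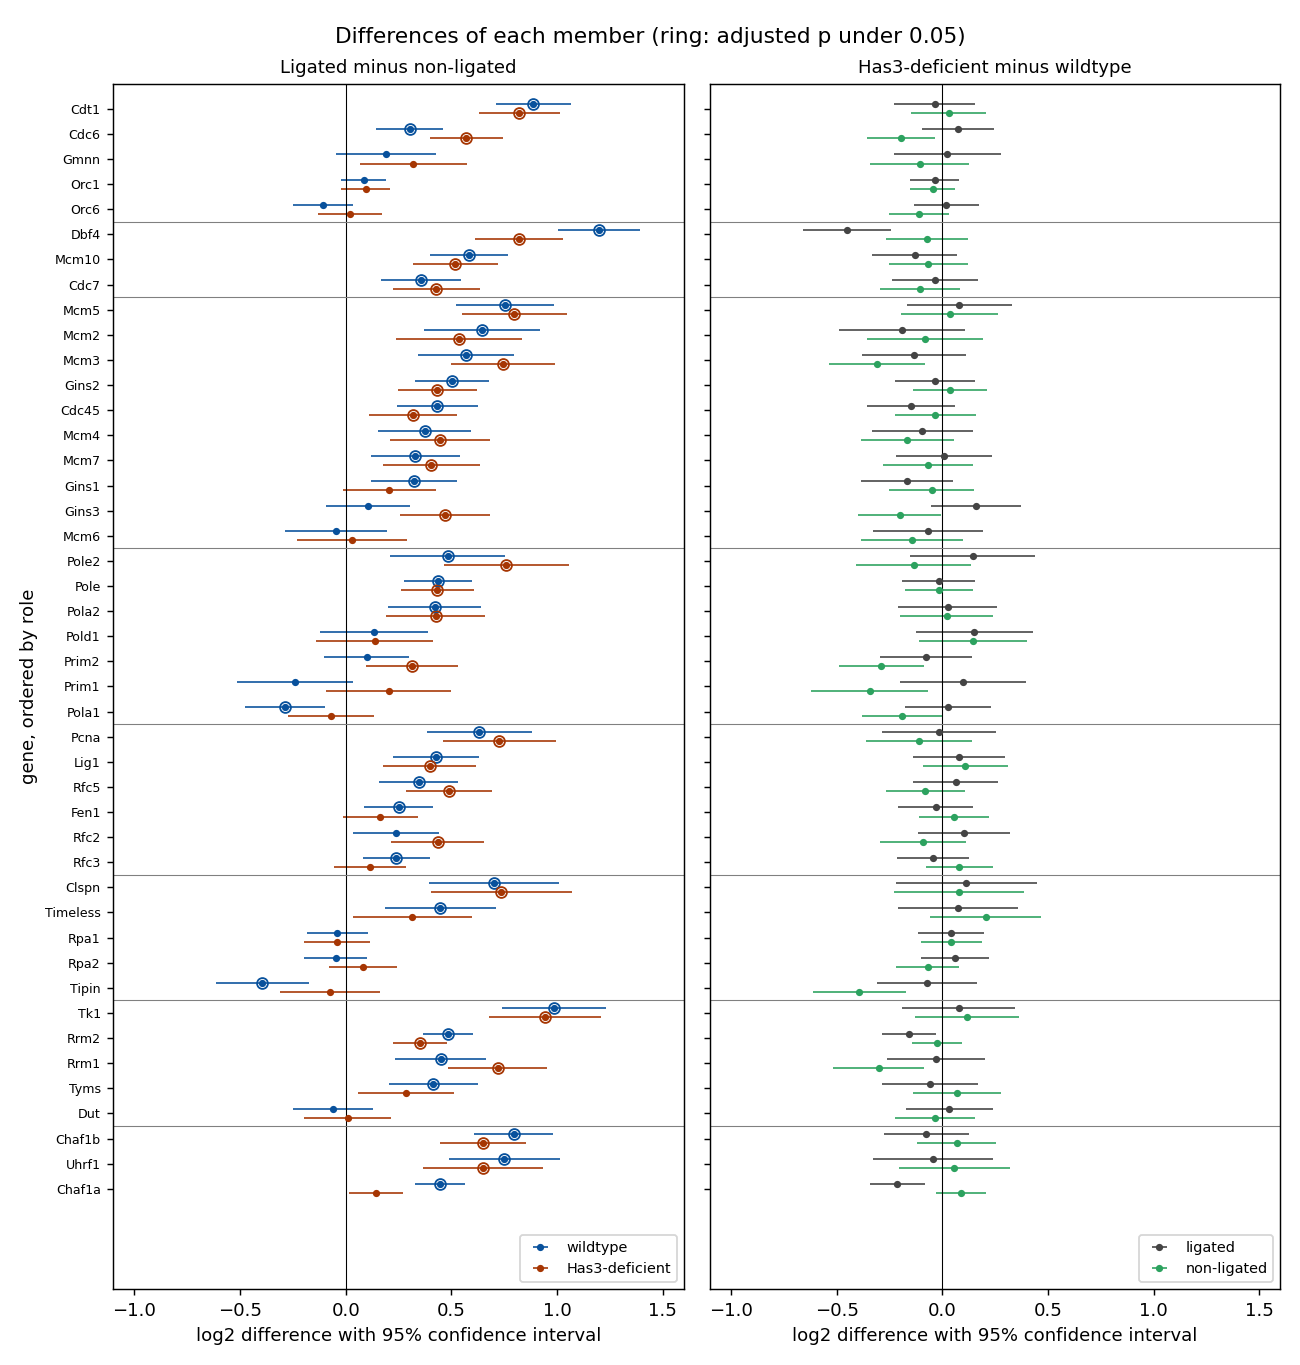
The left panel gives each member's ligated minus non-ligated log2 difference with its 95% confidence interval for wildtype (blue) and Has3 deficient arteries (red), ringed where the adjusted p is under 0.05. The right panel gives Has3 deficient minus wildtype in ligated (grey) and non-ligated arteries (green), where no member is ringed and Dbf4 (-0.45) and Tipin (-0.39) lie farthest from 0.

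The ligation comparisons of the genotypes share no array. Of the 30 members higher in wildtype and the 27 higher in Has3 deficient arteries, 24 were the same genes, which is 80% of the first and 88.9% of the second. Over all genes 1994 were higher in both, 68.2% of 2925 and 88.2% of 2262. The members called higher in wildtype arteries alone were Gins1, Fen1, Rfc3, Tyms, Chaf1a and Timeless, and those in Has3 deficient arteries alone were Gins3, Prim2 and Rfc2. None of these 9 passed the test of the difference between the responses. Several rises no longer passed when 1 array was left out. In wildtype arteries the call was lost for Mcm7 without non-ligated 4, ligated 1 or ligated 2, for Gins1 without non-ligated 1, and for Fen1 without non-ligated 1 or 2 or ligated 1 or 2. In Has3 deficient arteries it was lost for Cdc45 without any 1 of non-ligated 1, 2 and 3 and ligated 3 and 6, and for Pola2 without ligated 3 or 6. It was also lost there for Mcm2 without ligated 5, Mcm7 without ligated 3 and Lig1 without ligated 6. The 9 members called in neither genotype were Mcm6, Pold1, Prim1, Rpa1, Rpa2, Dut, Gmnn, Orc1 and Orc6.

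In ligated arteries no member differed between the genotypes by limma's adjusted p, as was so for all 22180 genes (0% higher and 0% lower). At an unadjusted p under 0.05, 0 members were higher and 3 lower in Has3 deficient arteries (background 1.83% higher and 2.27% lower). The first of them, Dbf4, differed by -0.45 ± 0.10, with a 95% confidence interval of -0.66 to -0.24 (adjusted p = 1 in limma). The others were Chaf1a, by -0.21 ± 0.06 (-0.34 to -0.08), and Rrm2, by -0.16 ± 0.06 (-0.29 to -0.03). All 3 Has3 deficient arrays were below all 4 wildtype arrays for each of these genes, and Pold1 did not overlap in the other direction. Of all genes 3.35% lay wholly lower and 3.55% wholly higher. For Rrm2 this held for the mean of its probe sets only, and on each probe set the groups overlapped. The Rrm2 probe sets differed between the genotypes by -0.28 ± 0.10 and -0.03 ± 0.05. The median member difference was -0.02, and the members ranged from -0.45 to 0.16. In the same comparison 9 of 10 smooth muscle markers (median 0.34) and 10 of 10 fat markers (median 0.80) had positive differences. Of all 22180 genes 10443 did. None of these markers passed, and 7 of the smooth muscle markers had an unadjusted p under 0.05 in limma. Macrophage markers were positive for 3 of 10 (median -0.09) and neutrophil markers for 6 of 10 (median 0.06). The part of these cells in the values was not tested. A missed threshold does not show that the genotypes are alike: the intervals reached from -0.66 to 0.45 over the members.

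In non-ligated arteries no member passed either, while 0.00902% of all genes passed as higher and 0.0766% as lower. At an unadjusted p under 0.05, 8 of the 44 members were lower in Has3 deficient arteries and 0 higher, against 8.09% lower and 5.34% higher among all genes. They were Tipin, Prim2, Rrm1, Mcm3, Prim1, Cdc6, Gins3 and Pola1. Only Tipin and Rrm1 did not overlap between the genotypes, as 3.82% of all genes did in that direction, and 0 members lay wholly higher (2.4% of all genes). The lowest p belonged to Tipin, at -0.39 ± 0.10 (adjusted p = 0.116, 95% confidence interval -0.61 to -0.17), followed by Prim2 at -0.29 ± 0.09 (-0.49 to -0.09) and Rrm1 at -0.30 ± 0.10 (-0.52 to -0.08). Without Has3 deficient non-ligated array 4, Tipin (-0.48, adjusted p = 0.0371) and Prim2 (-0.39, adjusted p = 0.0347) passed. Array 4 is the highest of its group for both genes, and it is also the highest of its group in the mean of the fat markers (1.92) and of the skeletal muscle markers (0.79, the others 0.02 to 0.08). The same array was highest of its group in the means of the macrophage (-0.14), neutrophil (-0.12) and lymphocyte markers (-0.02). The mean of 9 adventitial fibroblast markers also separated these groups, at 0.12 to 0.29 in wildtype and -0.14 to -0.07 in Has3 deficient arrays. All 10 neuronal and chromaffin markers had a positive difference (median 1.45, 8 of them over 1 log2 unit), and none passed. Their mean read 1.10, -0.28, 4.21 and 1.71 in Has3 deficient non-ligated arrays 1 to 4. In wildtype non-ligated arrays 1 to 4 it read -0.39, 2.34, -0.48 and -0.39. The part of any of these markers in the values was not tested.

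The difference between the ligation responses, Has3 deficient minus wildtype, passed for no member and for no gene in the table (0% in each direction). At an unadjusted p under 0.05, 3 members had a larger and 2 a smaller response in Has3 deficient arteries (background 4.38% and 3.75%). Chaf1a had the lowest p, at -0.30 ± 0.08 (adjusted p = 0.44, 95% confidence interval -0.48 to -0.13). Dbf4 followed at -0.38 ± 0.13 (-0.67 to -0.09), and Gins3 at 0.36 ± 0.14 (0.07 to 0.65) in the other direction. For Gins3, wildtype arrays read 0.04, -0.0043, -0.12 and 0, then 0.11, -0.04, 0.25 and 0.02. Has3 deficient arrays read -0.04, -0.41, -0.19 and -0.26, then 0.14, 0.15 and 0.45. Its Has3 deficient groups were apart, with 3 of 4 non-ligated arrays below every wildtype array. Cell markers differed in this comparison as well. The difference was positive for 9 of 10 smooth muscle markers (median 0.36) and 9 of 10 fat markers (median 0.77). It was positive for 9 of 9 adventitial fibroblast markers (median 0.30) and negative for 10 of 10 neuronal and chromaffin markers (median -1.22). Of all 22180 genes 10157 were positive. None of these markers passed, and their part in the values was not tested.

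Genes around this machinery gave a context for the members. Of 36 other replication genes 13 rose and 6 fell in wildtype arteries (median 0.06), and 14 rose and 1 fell in Has3 deficient ones (median 0.20). Among all genes 13.2% rose and 14.6% fell in wildtype, and 10.2% rose and 8.08% fell in Has3 deficient arteries. Dck, which salvages deoxycytidine, rose by 1.23 ± 0.18 and 1.23 ± 0.20. Hells, a chromatin remodeller, rose by 1.02 ± 0.11 and 1.01 ± 0.12, and Asf1b, a histone chaperone, by 0.96 ± 0.11 and 0.83 ± 0.12. The genes that fell were picked out after their values were seen: Rrm2b, Asf1a, Orc3, Orc4, Orc5 and Rfc1 in wildtype arteries. Asf1a fell by 0.75 ± 0.08 where its paralogue Asf1b rose, and Rrm2b, the form of the small reductase subunit known from resting cells, fell by 0.86 ± 0.09 where Rrm2 rose. In Has3 deficient arteries Rrm2b fell by 0.42 ± 0.10, and Asf1a differed by -0.26 ± 0.09 without passing (adjusted p = 0.0686).

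Of 26 E2F factors and genes of S phase entry, 15 rose and 5 fell in wildtype (median 0.38), and 10 rose and 2 fell in Has3 deficient arteries (median 0.24). Ccna2, the cyclin of S phase and mitosis, rose by 2.06 ± 0.22 and 2.09 ± 0.24, and E2f8, a repressing E2F, by 1.56 ± 0.11 and 1.54 ± 0.11. Cdkn1a, an inhibitor of cyclin-dependent kinases, rose as well, by 1.37 ± 0.19 and 1.55 ± 0.21. Of 11 replication checkpoint genes 3 rose and 4 fell in wildtype (median -0.11), and 3 rose and 0 fell in Has3 deficient arteries (median -0.04). Chek1, the kinase that claspin serves, rose by 0.49 ± 0.10 and 0.51 ± 0.10, and Rad9a, of the checkpoint clamp, by 0.46 ± 0.09 and 0.41 ± 0.10. Chek2, a kinase of the response to DNA breaks, rose in both genotypes, by 0.38 ± 0.09 and 0.74 ± 0.10. Atr, the kinase upstream of Chek1, fell by 0.40 ± 0.08 in wildtype arteries, and its difference was -0.18 ± 0.08 in Has3 deficient ones (adjusted p = 0.16).

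Of these 4 lists, that of mitosis had the largest medians. All 19 of its genes rose in both genotypes, with medians of 1.39 and 1.20, and 18 and 13 of them by more than 1 log2 unit, against 1 and 0 of the 44 replication members. Mki67, the proliferation marker, rose by 2.45 ± 0.17 and 2.54 ± 0.18, and Top2a, which untangles chromosomes, by 2.08 ± 0.10 and 1.90 ± 0.11. Ccnb2, a mitotic cyclin, rose by 2.08 ± 0.14 and 1.92 ± 0.16. The size of the gap between the lists was described and not tested. No gene of these 4 lists passed in a genotype comparison.

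**Figure D5:**
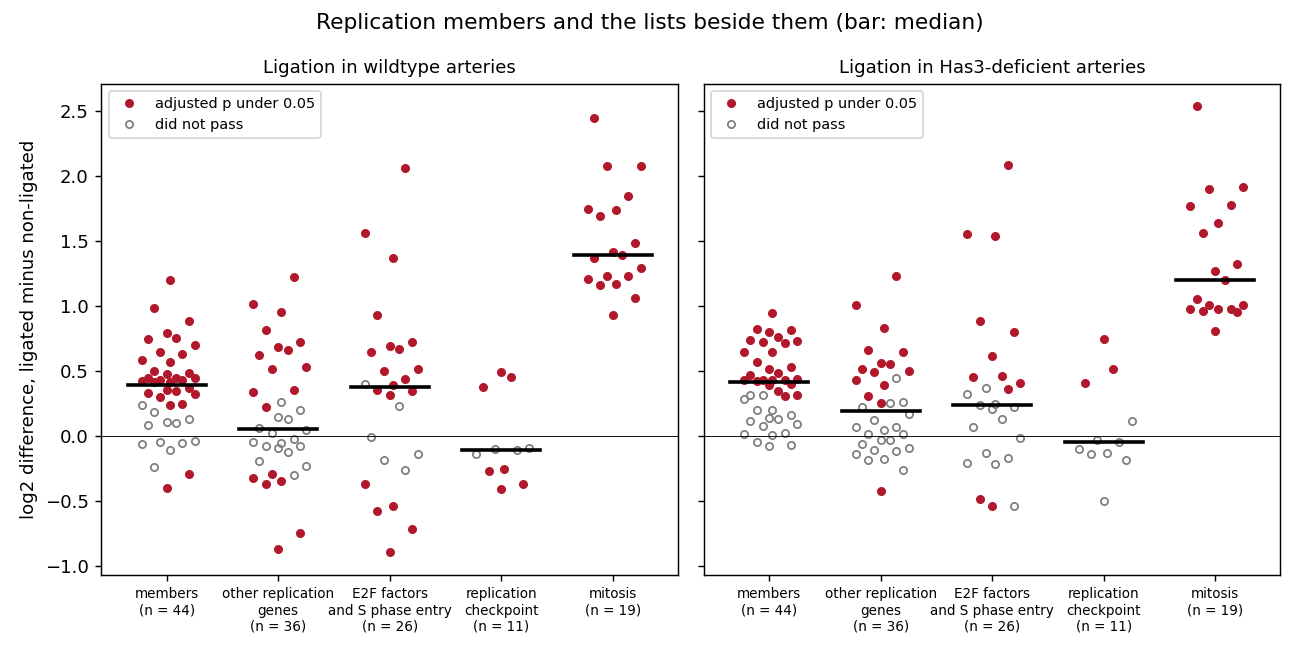
Each point is 1 gene's ligated minus non-ligated log2 difference in wildtype (left) or Has3 deficient arteries (right), filled where the adjusted p is under 0.05, with a bar at the list median. The 44 members sit around 0.39 and 0.41, the 19 mitosis genes around 1.39 and 1.20, and the other lists spread to both sides of 0.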

How the data were processed

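The table of log2 values was deposited by the authors and holds 33793 probe sets in 15 arrays, each value relative to its probe set's median over the arrays, as the values show. Biotin-labelled cDNA was made from 100 ng of RNA, per the labels' protocols. The software and the scaling between arrays were not given in the sources used here. That the logarithm has base 2 was inferred from the range. The number of arrays limits the precision.

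Of the probe sets, 23521 carried 1 gene symbol in the platform table, 1814 several and 8458 were unlisted. Probe sets of 1 symbol were averaged per gene (1082 genes had several). The 4 groups were fitted in 1 model with limma 3.58.1 in R 4.3.3 (11 residual and 2.69 prior degrees of freedom), with Benjamini-Hochberg adjustment over 22180 genes and a threshold of 0.05. The fit was tested on simulated data. Members and gene lists were chosen with earlier results of these data known. Values in every array were printed by rule: per role the largest rise and the smallest or most negative change in wildtype ligation, members that passed as lower, and the 3 lowest p in each genotype comparison and in the interaction. From each list up to 3 passing genes of largest change were named. No filter on dim probe sets was possible, since centring removed the levels. Promoter words were counted in RefSeq windows of 300 bases.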

Additional observations from a re-analysis of the deposited data

Results flagged for a closer look

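In 63 groups of 4 arrays, over the 20 members given array by array and the median of all members, the highest or lowest array was set against the others, and 2 stood apart; chance gives about 1 in 20. Cdc7 in Has3 deficient non-ligated array 2 read -0.438, where the other 3 arrays read -0.174 to -0.131 (gap over range 0.859). Prim2 in wildtype non-ligated array 3 read 0.129, where the others read -0.0591 to -0.0344 (gap over range 0.869).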

How the results depend on the processing

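The results were recomputed with array weights, a common median or quantile normalization, a fit of only the 2 groups compared, the replicate block, the probe set of largest variance, adjustment over all probe sets, a robust prior, each array left out in turn, and, added after the data were seen, leaving out both arrays highest in neuronal markers. In wildtype ligation the count of members called stayed between 29 and 33, with a median difference of 0.35 to 0.42; 26 of the 30 rises held throughout, all but Mcm7, Gins1, Fen1 and Rfc3. In Has3 deficient ligation 23 to 27 members were called when arrays were left out and 14 with the replicate block, with a median of 0.36 to 0.47. Of the 27 rises, 13 held throughout and 20 in all but the block. The labels do not say whether equal numbers pair the samples. Same-numbered wildtype samples deviated with r = 0.0282 to 0.164 over genes, and differently numbered ones with r = -0.208 to 0.121. The 1 shared Has3 number gave -0.0576, and different numbers there gave -0.179 to 0.175. These ranges overlap, so they cannot decide whether the numbers pair the samples. Has3 deficient ligated arrays 5 and 6 carry numbers of their own, so that they add nothing under the block. For genotype in non-ligated arteries 0 to 2 members were called when arrays were left out, 2 without Has3 deficient array 4. The median member difference for genotype in ligated arteries was 0.049 with the block and -0.032 to 0.037 when arrays were left out, and that of the interaction was 0.13 with the block. The cause was not tested. The other counts of members called, and the other medians, moved less than this under the alternatives run, and no named member that passed changed direction. Signal over background could not be assessed, and small differences of dim genes may be missed.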
